A study of Mus musculus with 14 samples.

Results

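The 10 genes described here encode proteins that bring fatty acids into cells and that build, coat and dissolve lipid droplets. They are Cd36, Cidec, Cideb, Plin2, Plin4, Plin5, Fitm1, Fitm2, Pnpla2 and G0s2, chosen by symbol, and they are 10 of the 54446 genes whose transcripts were quantified in 14 RNA libraries of mouse hepatocytes. All 10 averaged 1 TPM or more (transcript level scaled for length and for the library's total) and were therefore tested in every comparison. A lipid droplet is a store of triglyceride in a coat of proteins, made at the endoplasmic reticulum and emptied by lipases. In the liver it grows when fatty acids arrive faster than they are burned or exported, and many of the coat proteins are induced through the fatty acid sensors of the PPAR family. Cells meet the same supply by uptake through carriers such as CD36, a surface receptor for long-chain fatty acids that healthy adult hepatocytes make at a low level.

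SRSF1 is a splicing factor of the SR protein family. HKO mice carried srsf1f/f with albcre+/-, which deletes the floxed gene where the albumin promoter drives Cre, and their controls were albcre+/- mice, so that these controls also made Cre. HKO_P10 and control_P10 libraries came from postnatal day 10 and HKO_1m and control_1m libraries from 1 month, with 2 libraries in each of these groups and no treatment. For acHKO_acute, srsf1f/f mice received at 8 weeks an AAV8 vector with iCre under the hepatocyte promoter TBG, and GFP_acute mice, also srsf1f/f, received GFP under the same promoter. Both were sampled at 10 weeks, with 3 libraries each. All animals were on C57BL/6, and the labels do not say that replicates came from separate mice, so p-values measure the spread between libraries, which may be technical.

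Srsf1 itself was at 23.4 to 30.0 TPM in HKO_P10 against 43.6 to 46.4 TPM in control_P10, at 7.74 to 9.17 TPM in HKO_1m against 20.0 to 23.2 TPM in control_1m, and at 3.69 to 5.34 TPM in acHKO_acute against 16.5 to 32.3 TPM in GFP_acute. The knockout means were 59.3%, 39.2% and 16.8% of those of their controls. Together 8 hepatocyte markers held 3.37% to 13.3% of all TPM in every library. HKO_P10 replicate 2 stood apart, with 74.7 TPM of Xist and 0.144 TPM over 4 Y-linked genes, against at most 0.0147 TPM and at least 24.9 TPM in the other 13 libraries. It also had 2884 TPM of erythroid and 435 TPM of neutrophil markers, against at most 480 and 222 TPM in the other P10 libraries. Tests of the P10 difference are therefore also given without it. Depth is unknown, because the deposited values are TPM.

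Cidec and Cd36 were higher in the knockout in all 3 comparisons, though Cd36 at P10 and Cidec at 1 month did not pass under several alternatives. Cidec rose most at P10 and Cd36 most at 1 month. Around them the pattern differed between models: Plin4 and Fitm1 rose in acHKO_acute, while Fitm1 fell at P10, a call that did not survive leaving out any P10 library. Plin2, the most abundant of the 10 in all P10 and HKO_1m libraries, was higher in every knockout library than in any library of its own control group, by 1.44 to 2.23 times in the means, but did not pass the test in any comparison. Cideb differed least between groups, and Pnpla2 and G0s2 passed no knockout test. At P10 the authors' deposited table called Cd36 higher and Fitm1 lower, and it did not call Cidec at 1 month.

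**Figure D1:**
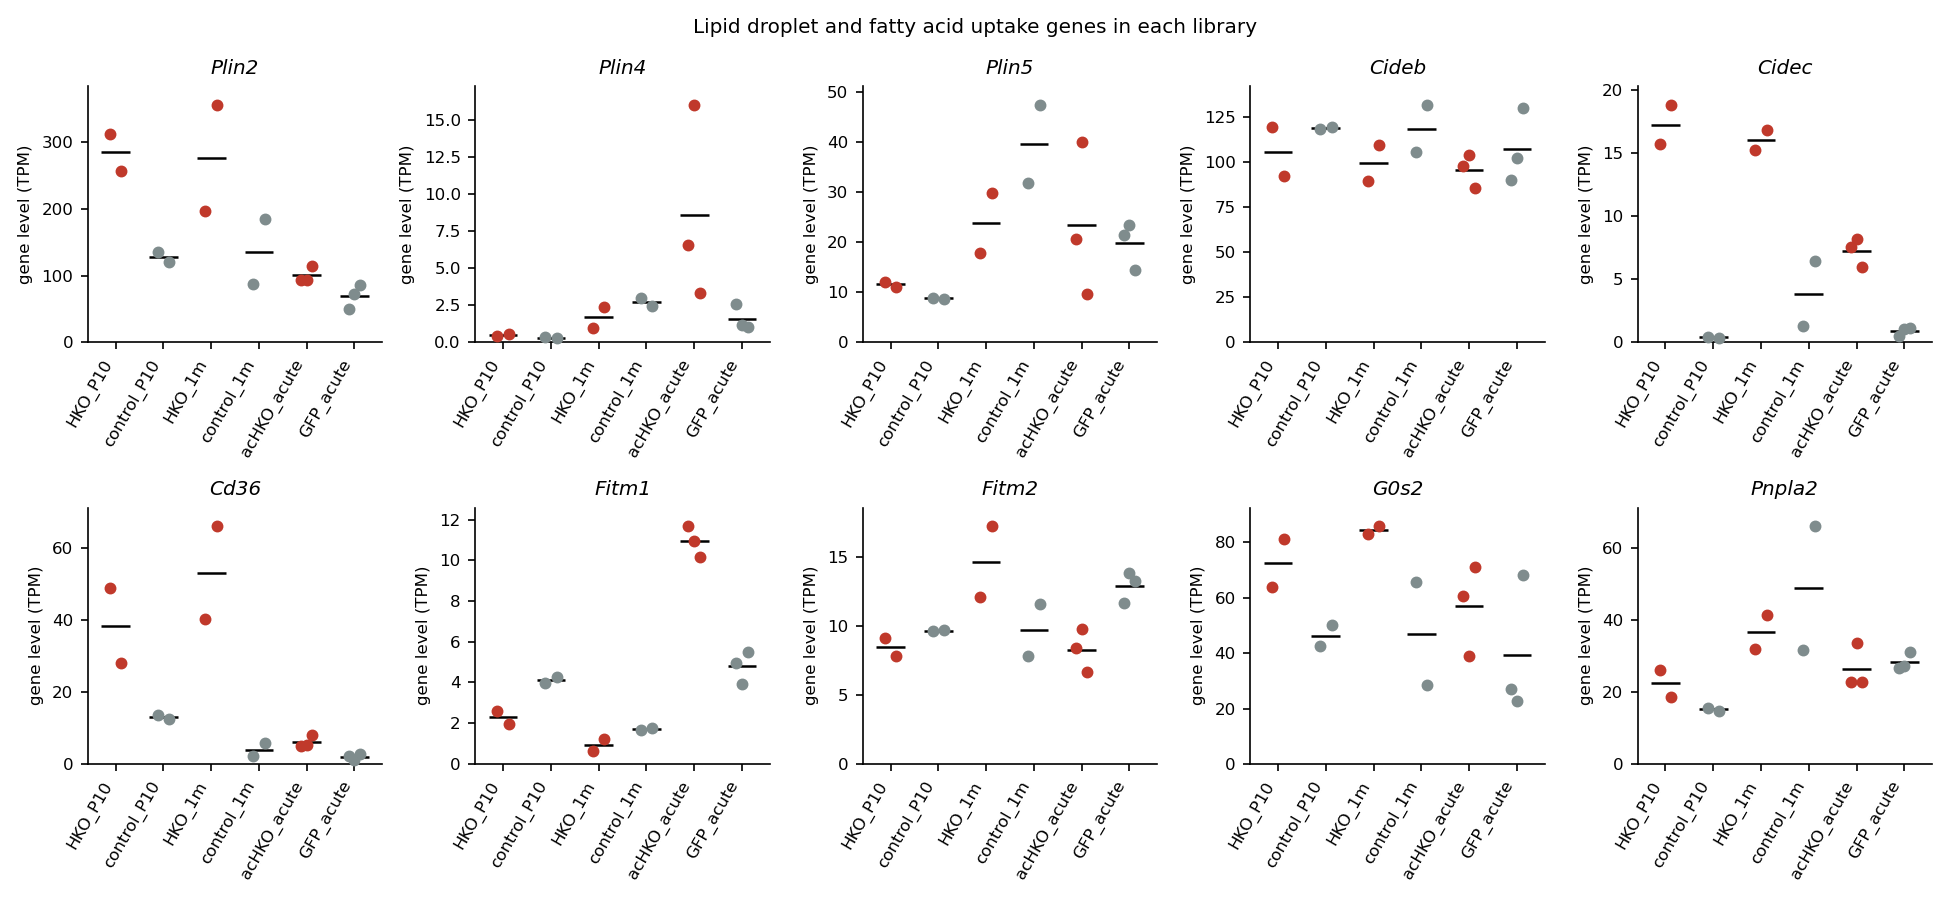
Level of each of the 10 genes (y axis, TPM, linear) in each library, by group (x axis), knockouts in red and controls in grey; lines are group means of 2 or 3 libraries. Cidec and Cd36 points lie above their own controls in every comparison, Fitm1 reaches 10.2 to 11.7 TPM in acHKO_acute, and Cideb stays between 85.6 and 131 TPM throughout.

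Calls were made with limma on log2(TPM + 1) over all genes averaging 1 TPM or more, at a Benjamini-Hochberg adjusted p under 0.05. At P10, 2 of the 10 genes were higher and 1 lower in HKO_P10, beside 10.8% higher and 1.87% lower of all 11736 genes tested. Without HKO_P10 replicate 2, Cd36 and Cidec remained called, Fitm1 did not, and the other 7 stayed uncalled (limma adjusted p = 0.1177 for Plin2, 0.3415 for Pnpla2, 0.5566 for Plin5, 0.5749 for G0s2, 0.8711 for Plin4, 0.9141 for Fitm2 and 0.9959 for Cideb), beside 5.17% higher and 0.91% lower of 11535 genes. At 1 month 2 were higher and none was lower in HKO_1m, beside 4.87% and 1.99% of all genes, while 8 of the 10 had an unadjusted p under 0.05, as did 18.8% of all genes. After acute deletion 4 were higher and 1 lower in acHKO_acute, beside 5.93% higher and 34.8% lower of 9963 genes. The median gene itself moved by 0.252 at P10, by -0.00133 at 1 month and by -0.363 after acute deletion on the log2 scale. Changes below are therefore given relative to that median and called relative log2 changes. Each adjusted p and SE beside them belongs to the log2 change before that shift, so the relative change itself was not tested. The median relative log2 change of the 10 genes was 0.184 at P10, 0.152 at 1 month and 0.963 after acute deletion, where that of all genes is 0 by construction. Where groups are said below not to overlap, this only describes the libraries. With 2 libraries in a group, unchanged genes often separate in this way, and the share of all genes that did so was not counted.

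**Figure D2:**
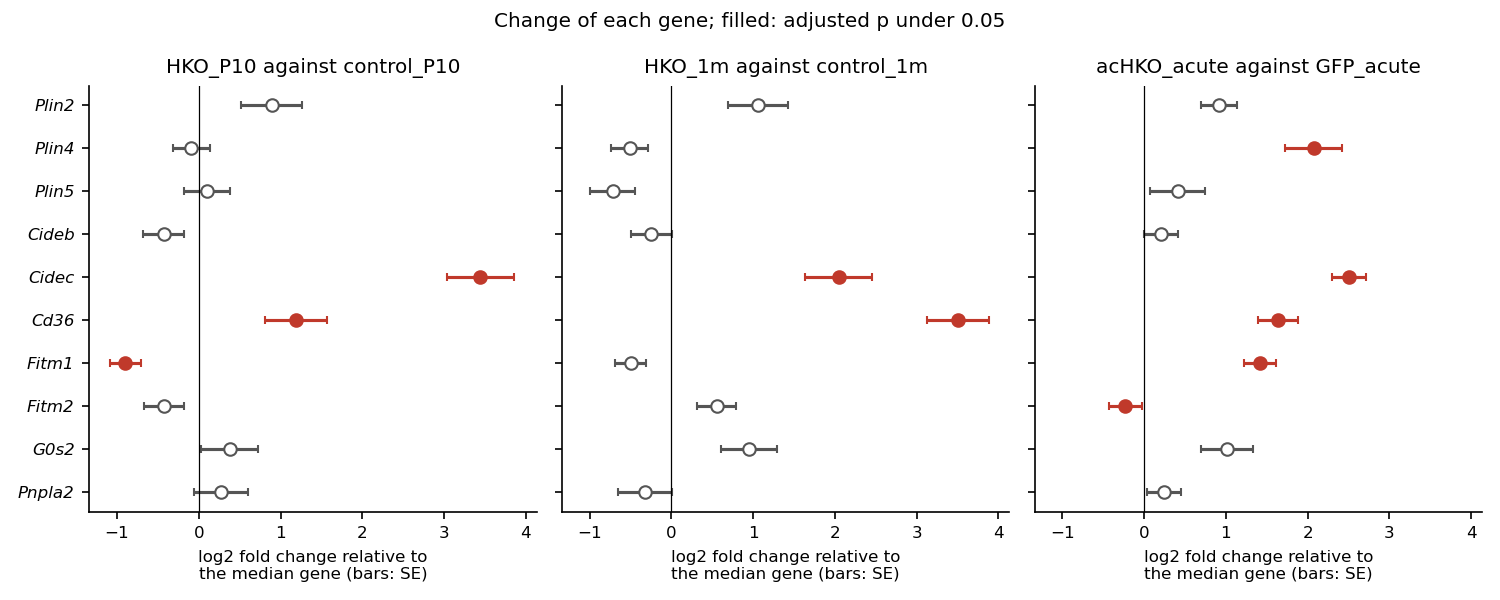
Relative log2 change of each gene (x axis, log2 fold change on log2(TPM + 1) minus the median of all genes tested) in the 3 knockout comparisons. Bars are the standard error of the log2 fold change before that shift, and filled red points passed adjusted p 0.05 for it. Cidec and Cd36 are filled in all 3 panels, and Fitm1 is filled on opposite sides of 0 at P10 and after acute deletion.

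Cd36 (ENSMUSG00000002944.15) lies at chr5:17781690-17888801 on the minus strand of GRCm38. At 1 month it had 40.4 and 66.0 TPM in HKO_1m, against 2.19 and 5.74 TPM in control_1m. At P10 it had 48.8 and 28.1 TPM in HKO_P10, against 13.7 and 12.5 TPM in control_P10. After acute deletion it had 5.03, 5.26 and 7.93 TPM in acHKO_acute, against 2.12, 1.00 and 2.83 TPM in GFP_acute. The knockout libraries were above the control libraries without overlap in each comparison, and the acute knockout stayed below the P10 controls. The group means were 53.2 ± 18.1 TPM in HKO_1m and 3.97 ± 2.51 TPM in control_1m (SD, n = 2 each), a ratio of 13.4. The relative log2 change was 3.51 at 1 month (SE 0.378, limma adjusted p = 0.0002216), 1.19 at P10 (SE 0.378, limma adjusted p = 0.03158) and 1.63 after acute deletion (SE 0.243, limma adjusted p = 0.0007646). The P10 call was lost without either control_P10 library (limma adjusted p = 0.07998 without replicate 1 and 0.1094 without replicate 2) and without HKO_P10 replicate 1 (0.1651). Without HKO_P10 replicate 2, the library that stood apart, it held at 0.01282. Median-ratio rescaling of the libraries ended the P10 call as well (limma adjusted p = 0.09461), as did a pseudocount of 0.1 (0.0594) and no filter on mean TPM (0.1365). With no filter the acute call was also lost (limma adjusted p = 0.05189). In the authors' deposited table Cd36 at P10 had a log2 fold change of 1.24 and an adjusted p of 7.109e-07. After acute deletion it had 1.93 and 4.968e-07 there.

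The Cd36 effect at 1 month exceeded that at P10 by 2.07 on the log2 scale (SE 0.534), with a limma adjusted p of 0.0711. That adjusted p fell to 0.01926 without HKO_P10 replicate 1 and to 0.008297 without control_1m replicate 2, while without HKO_P10 replicate 2 the difference was 1.68 with an adjusted p of 0.147. Controls moved the other way with age: control_1m was below control_P10 by a relative log2 change of -1.17 (SE 0.378, limma adjusted p = 0.00572), a call that median-ratio rescaling ended (0.05342). That comparison and the P10 knockout comparison share the control_P10 libraries. The order of the Cd36 group means was HKO_1m, HKO_P10, control_P10, acHKO_acute, control_1m and GFP_acute, and the ranges of HKO_1m and HKO_P10, of acHKO_acute and control_1m, and of control_1m and GFP_acute overlapped.

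Macrophages also make CD36, and many of their markers were higher at 1 month and after acute deletion. Of 10 macrophage and Kupffer cell markers, 8 were higher in HKO_1m and 1 in HKO_P10, and all 6 that could be tested were higher in acHKO_acute. Of all genes, 4.87% were higher at 1 month, 10.8% at P10 and 5.93% after acute deletion. At P10 the median relative log2 change of the markers was -0.04. Their summed level was 142 and 51.3 TPM in HKO_1m against 14.9 and 18.0 TPM in control_1m, and 24.6, 7.39 and 46.7 TPM in acHKO_acute against 5.03, 6.55 and 12.7 TPM in GFP_acute. At P10 it was 678 and 461 TPM in HKO_P10 against 385 and 405 TPM in control_P10. None of these markers was at 0 in all libraries of any group. The control_P10 libraries, with these marker sums, had 12.5 to 13.7 TPM of Cd36. The part of macrophages in the Cd36 differences was not tested. Some other markers also had higher mean sums at 1 month. Endothelial markers were at 16.95 TPM in HKO_1m against 7.615 TPM in control_1m. Stellate and fibroblast markers were at 17.96 against 4.816 TPM, and cholangiocyte markers at 26.91 against 1.76 TPM. Erythroid markers were at 12.37 TPM in HKO_1m against 13.47 TPM in control_1m. In such samples more cells of a type and more RNA per cell cannot be told apart.

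**Figure D3:**
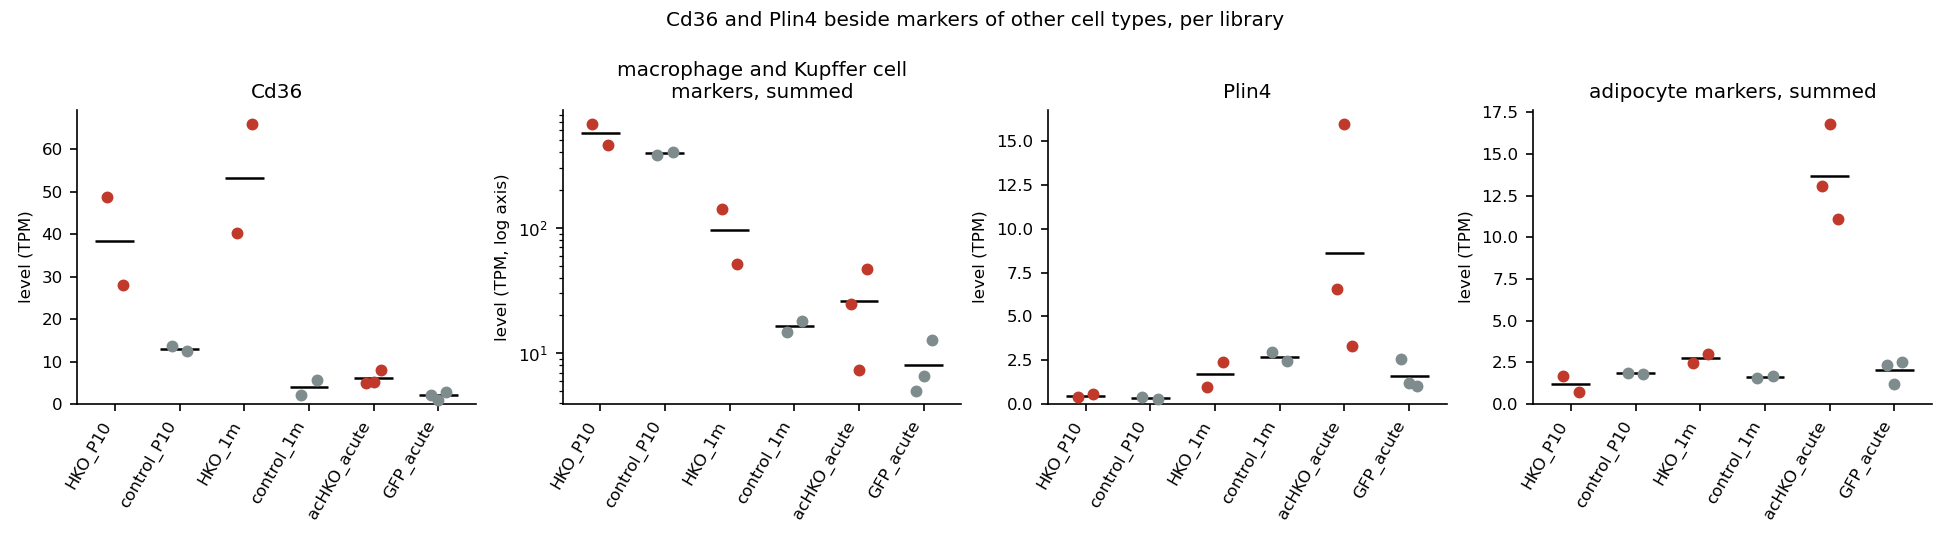
Levels (y axes, TPM; the macrophage panel has a log axis) of Cd36, 10 summed macrophage and Kupffer cell markers, Plin4 and 6 summed adipocyte markers in each library, knockouts in red and controls in grey, lines at group means. The Cd36 mean is highest in HKO_1m, with libraries at 40.4 and 66.0 TPM, and the macrophage markers are highest at P10, up to 678 TPM.

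The 6 Cd36 transcripts are annotated in 3 start regions, 39009 and 53084 bases apart from the most upstream one, all with the same start codon, so that they differ before the coding part. The grouping by start region was made after the values were seen, and the shares are given as a description. Transcripts of the second region made up 31.3% and 40.4% of Cd36 in HKO_1m against 15.5% and 19.3% in control_1m. At P10 they made up 2.02% and 2.82% in HKO_P10 against 1.01% and 1.80% in control_P10. In the acute model they held 36.6%, 32.8% and 31.6% in acHKO_acute against 39.6%, 23.9% and 20.6% in GFP_acute. The second region was thus rare in every P10 library and common at 1 month and 10 weeks. The 10-week libraries also differ from the others in sequencing layout. In HKO_1m its level reached 12.7 and 26.7 TPM, against 0.341 and 1.11 TPM in control_1m. The third region held 52.8% and 49.7% in HKO_P10 against 53.9% and 52.8% in control_P10, and 27.0% and 11.7% in HKO_1m against 50.6% and 42.2% in control_1m. The test of Cd36 transcript usage did not pass at 1 month, with a largest change in share of 24.7 percentage points and a limma diffSplice adjusted p of 0.772.

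The RefSeq promoter window of Cd36, 250 bases before to 50 after the start that RefSeq gives (GRCm38.p6, chr5:17835847-17836146, minus strand), is shown as the promoter sequence that RefSeq assigns to this gene. That start lies 179 bases upstream of the nearest annotated start of the third region, so the window holds none of the starts counted above and windows at the first and second regions were not used here. Capitals mark the nuclear receptor half-site AGGTCA, at -228 from the start, and a pair of half-sites (AGGTCA, 1 base of any kind, AGGTCA), the arrangement PPAR binds, at -63 with 2 mismatches allowed and 2 present. Both strands were searched, and both matches read on the strand opposite to the one printed.
Cd36: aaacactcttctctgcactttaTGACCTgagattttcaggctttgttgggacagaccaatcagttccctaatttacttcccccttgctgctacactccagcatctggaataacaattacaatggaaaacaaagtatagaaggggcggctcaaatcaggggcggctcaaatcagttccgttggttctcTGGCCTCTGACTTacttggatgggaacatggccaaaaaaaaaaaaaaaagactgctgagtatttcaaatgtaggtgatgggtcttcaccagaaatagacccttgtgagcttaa
Of 32851 promoter windows of the same length, 16.26% held the half-site and 3.86% the paired half-sites at up to 2 mismatches. These matches describe the letters only.

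Cidec (ENSMUSG00000030278.11, chr6:113424634-113435760, minus strand), also called FSP27, sits where droplets touch and passes lipid from the smaller to the larger one. Cidec had 15.7 and 18.8 TPM in HKO_P10, against 0.467 and 0.342 TPM in control_P10. At 1 month it had 15.3 and 16.8 TPM in HKO_1m, against 1.29 and 6.45 TPM in control_1m. After acute deletion it had 7.61, 8.24 and 5.97 TPM in acHKO_acute, against 0.471, 1.06 and 1.11 TPM in GFP_acute. The knockout level was alike at both ages, and the control libraries at 1 month differed most among themselves. The ratio of means was 42.7 at P10, 4.15 at 1 month and 8.25 after acute deletion. The relative log2 change was 3.45 at P10 (SE 0.409, limma adjusted p = 0.0002243), 2.05 at 1 month (SE 0.409, limma adjusted p = 0.01126) and 2.51 after acute deletion (SE 0.21, limma adjusted p = 1.344e-06). At P10 it held without HKO_P10 replicate 2 at an adjusted p of 5.91e-05. The 1-month call was lost without either HKO_1m library (limma adjusted p = 0.1012 without replicate 1 and 0.08706 without replicate 2). With no filter on mean TPM the 1-month call was lost too (limma adjusted p = 0.2096). In the authors' deposited table Cidec at 1 month had a log2 fold change of 2.01 and an adjusted p of 0.2035, and at P10 a log2 fold change of 5.13 and an adjusted p of 3.144e-101.

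The difference between the Cidec effects at 1 month and P10 was -1.65 on the log2 scale (SE 0.578, limma adjusted p = 0.1841), and it passed at 0.0006483 without control_1m replicate 1. Without HKO_P10 replicate 2 it was -1.53, with an adjusted p of 0.2657. The difference between the acute effect and the 1-month effect was 0.10 (SE 0.491, limma adjusted p = 0.9102). Controls gained Cidec with age, with a relative log2 change of 1.99 in control_1m against control_P10 (SE 0.409, limma adjusted p = 0.01021), which was lost when those 4 libraries alone were fitted (0.06205). At 1 month 6 adipocyte markers summed to 2.48 and 3.01 TPM in HKO_1m against 1.58 and 1.65 TPM in control_1m. The only 1 of them that could be tested did not pass. Adipoq, another of them, which encodes the adipocyte hormone adiponectin, was at most 0.0229 TPM in HKO_1m against at most 0.11 TPM in control_1m. The part of adipocytes in the Cidec difference was not tested.

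Cidec transcripts are annotated at a pair of start regions 996 bases apart. One transcript of the second region has a start codon upstream of that used from the first. In mice a longer form of the protein has been described as the main one in liver and a shorter form as the main one in fat. Transcripts annotated at both regions took part in the rise, and the starts themselves were not measured. The leading transcript of the second region is annotated at 785 bases, against 1703 and 1720 bases for those of the first. The second region had 8.73 and 10.2 TPM in HKO_P10 against 0.208 and 0.0389 TPM in control_P10, and the first had 6.996 and 8.62 TPM in HKO_P10 against 0.259 and 0.303 TPM in control_P10. The share of the second region was 55.5% and 54.2% in HKO_P10, 57.2% and 58.3% in HKO_1m, 53.0% and 55.2% in control_1m, 56.1% to 62.3% in acHKO_acute and 52.4% to 65.5% in GFP_acute. Only in control_P10, where the gene was below 1 TPM, did it stray, at 44.6% and 11.4%. Transcript usage of Cidec did not pass at P10 (limma diffSplice adjusted p = 0.09395), and in the acute comparison it was not tested because fewer than 2 of its transcripts passed the filter.

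The RefSeq windows at both Cidec starts are shown since transcripts annotated at both were quantified in knockout hepatocytes. They are chr6:113435711-113436010 for the first region and chr6:113434715-113435014 for the second (GRCm38.p6, minus strand).
Cidec first region: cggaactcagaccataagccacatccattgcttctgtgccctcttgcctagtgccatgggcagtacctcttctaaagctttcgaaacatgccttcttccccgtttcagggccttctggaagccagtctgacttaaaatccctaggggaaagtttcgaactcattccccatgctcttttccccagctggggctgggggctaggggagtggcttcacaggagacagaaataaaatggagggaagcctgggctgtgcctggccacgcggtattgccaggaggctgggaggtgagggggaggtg
Cidec second region: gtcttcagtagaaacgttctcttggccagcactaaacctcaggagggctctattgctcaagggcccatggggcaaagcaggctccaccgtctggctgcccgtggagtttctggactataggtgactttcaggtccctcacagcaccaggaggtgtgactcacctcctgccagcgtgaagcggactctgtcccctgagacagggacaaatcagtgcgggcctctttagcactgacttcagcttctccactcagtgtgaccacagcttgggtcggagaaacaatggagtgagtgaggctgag
Neither window held the half-site, the paired half-sites, the E-box CACGTG or the TATA letters TATAAA, which 7.15% and 13.62% of all windows held for the last pair of motifs. That absence covers these 300 bases only.

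**Figure D4:**
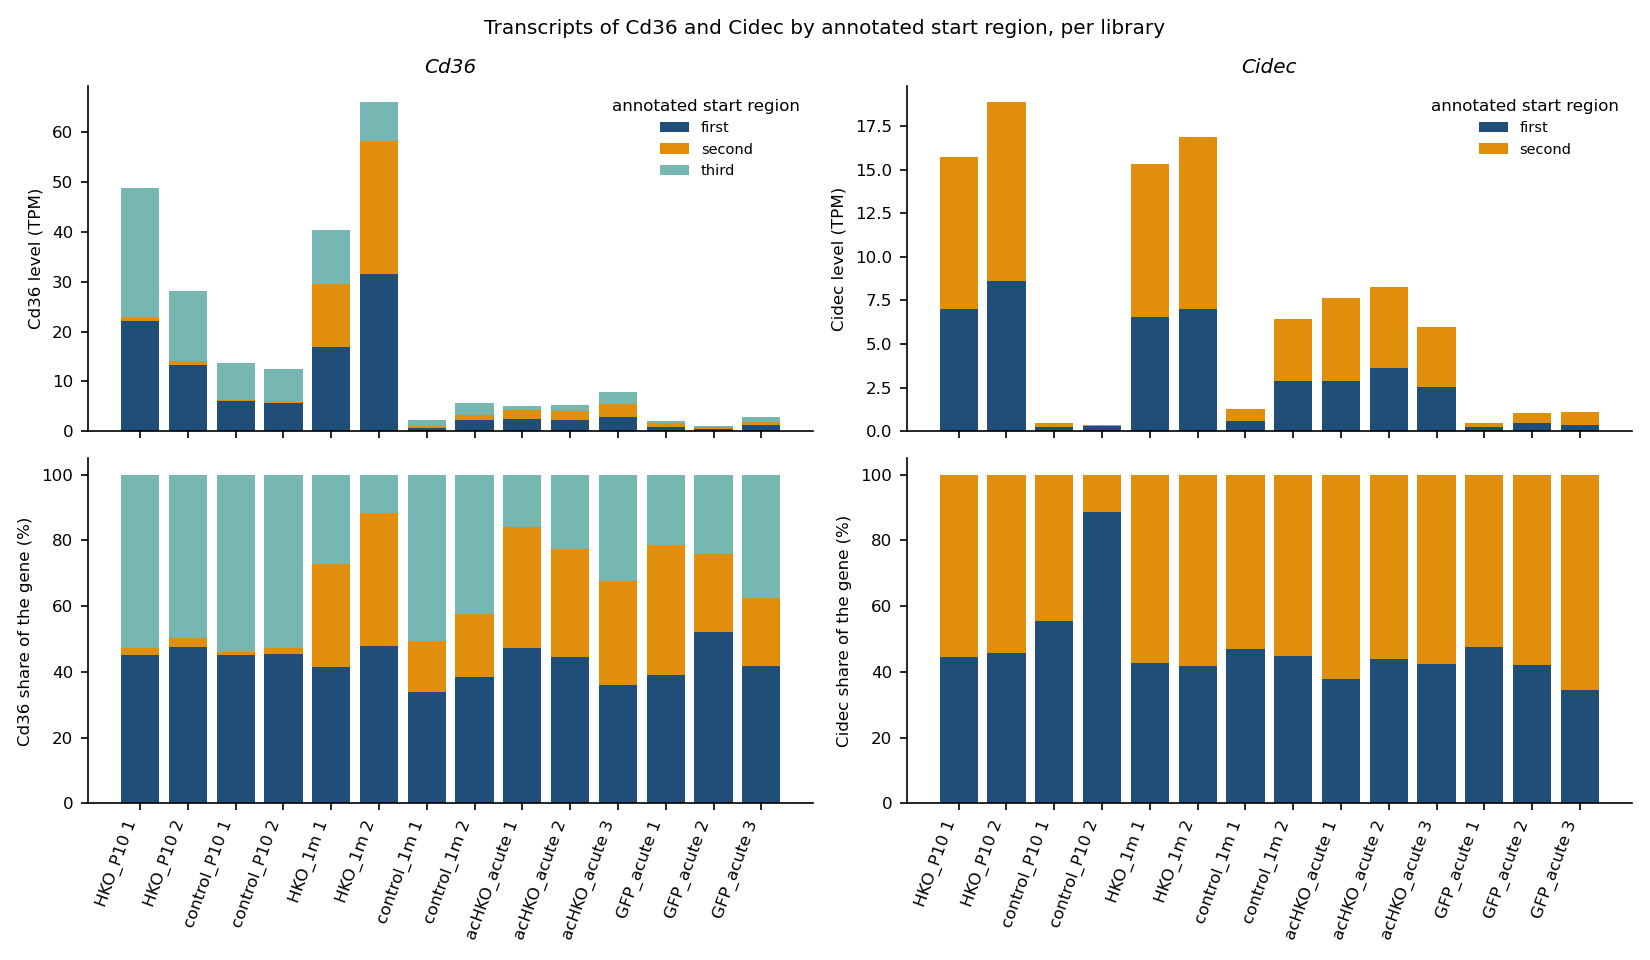
Cd36 (left) and Cidec (right) by annotated start region in each library: TPM above, share of the gene's TPM in percent below. The second Cd36 region is 1.01% to 2.82% of the gene in the P10 libraries and 15.5% to 40.4% in the others, while the Cidec regions divide the gene alike in all groups but control_P10.

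Cideb (ENSMUSG00000022219.10, chr14:55754050-55758458, minus strand), a relative of Cidec that enlarges droplets and helps load lipid onto very low density lipoprotein in hepatocytes, passed the test in no knockout comparison. It had 119 and 92.1 TPM in HKO_P10 against 118 and 119 TPM in control_P10, and 89.2 and 109 TPM in HKO_1m against 105 and 131 TPM in control_1m. It had 97.5, 104 and 85.6 TPM in acHKO_acute against 90.1, 102 and 129.7 TPM in GFP_acute. Groups overlapped in all 3 comparisons. Relative log2 changes were -0.43, -0.25 and 0.21 (limma adjusted p = 0.6565, 0.6825 and 0.5627). The authors' deposited table called Cideb lower at P10, with a log2 fold change of -0.48 and an adjusted p of 0.005626.

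Plin2 (ENSMUSG00000028494.12, chr4:86648386-86670060, minus strand) encodes the main coat protein of hepatocyte droplets, which is stabilised by lipid and shields it from lipases. At P10 it had 313 and 257 TPM in HKO_P10 against 136 and 120.3 TPM in control_P10. At 1 month it had 198 and 356 TPM in HKO_1m against 87.5 and 184 TPM in control_1m. After acute deletion it had 94.0, 93.3 and 115 TPM in acHKO_acute against 50.4, 72.7 and 86.5 TPM in GFP_acute. The knockout libraries were above their controls without overlap each time, with the narrowest gaps at 1 month and after acute deletion. The ratio of means was 2.23 at P10, 2.04 at 1 month and 1.44 after acute deletion. The relative log2 change was 0.89 (SE 0.372, limma adjusted p = 0.06848), 1.06 (SE 0.372, limma adjusted p = 0.1355) and 0.91 (SE 0.221, limma adjusted p = 0.05516), so that none passed the threshold. Before the shift by the median, the log2 changes tested were 1.144, 1.056 and 0.5496. Plin2 passed at P10 when those 4 libraries alone were fitted (limma adjusted p = 0.008249), and after acute deletion with median-ratio rescaling (0.005383). At 1 month it passed with coding genes only (limma adjusted p = 0.03699) and without control_1m replicate 2 (0.02442). In the authors' deposited table its adjusted p was 7.196e-08 at P10, 0.05902 at 1 month and 7.383e-06 after acute deletion, with log2 fold changes of 0.84, 0.92 and 0.86. Plin2 alone made up 51.2% and 49.7% of the summed TPM of the 10 genes in HKO_P10 against 38.9% and 35.4% in control_P10.

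The Plin2 window (GRCm38.p6, chr4:86670010-86670309, minus strand) is shown because it was one of the windows with a pair of half-sites. Capitals mark that pair at -225, with 2 mismatches, whose second part is an exact half-site at -218, and the E-box CACGTG at -4.
Plin2: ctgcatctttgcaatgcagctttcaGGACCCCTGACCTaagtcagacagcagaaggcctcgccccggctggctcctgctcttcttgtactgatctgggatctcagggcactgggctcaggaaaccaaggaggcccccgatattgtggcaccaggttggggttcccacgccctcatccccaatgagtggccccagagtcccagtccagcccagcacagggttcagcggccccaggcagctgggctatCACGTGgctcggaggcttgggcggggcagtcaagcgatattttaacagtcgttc
Over the 12 RefSeq windows of the 10 genes, the half-site stood in those of Cd36, Plin2 and both of Plin5, and TATAAA stood in that of Cideb.

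Plin5 (ENSMUSG00000011305.11, chr17:56111601-56117596) and Plin4 (ENSMUSG00000002831.13, chr17:56100591-56109803) are neighbours on the minus strand. PLIN5 links droplets to mitochondria in tissues that burn fat, and PLIN4 coats nascent droplets, mainly in adipocytes. Plin5 had 12.2 and 11.02 TPM in HKO_P10 against 8.97 and 8.76 TPM in control_P10, and 18.0 and 29.8 TPM in HKO_1m against 31.8 and 47.4 TPM in control_1m. It had 20.7, 40.1 and 9.59 TPM in acHKO_acute against 21.4, 23.5 and 14.6 TPM in GFP_acute. The knockout libraries were thus all above their controls at P10 and all below them at 1 month, and they straddled the controls after acute deletion. No knockout comparison passed (limma adjusted p = 0.4141, 0.1768 and 0.919), nor did the difference between the effects at 1 month and P10, which was -1.07 on the log2 scale (SE 0.393, limma adjusted p = 0.2073). The authors' deposited table called Plin5 lower at 1 month, with a log2 fold change of -0.83 and an adjusted p of 0.02231.

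Plin4 was under 1 TPM in all P10 libraries, at 0.400 and 0.558 TPM in HKO_P10 against 0.375 and 0.267 TPM in control_P10. At 1 month it had 0.977 and 2.40 TPM in HKO_1m against 2.98 and 2.44 TPM in control_1m. After acute deletion it had 6.55, 16.0 and 3.30 TPM in acHKO_acute against 2.59, 1.17 and 1.03 TPM in GFP_acute. The acute knockout libraries were all above the others of the series, and replicate 2 stood well above the other two. The relative log2 change there was 2.07 (SE 0.353, limma adjusted p = 0.001371). The call was lost without GFP_acute replicate 3 (limma adjusted p = 0.05209) and with no filter on mean TPM (0.1046). The acute effect exceeded the 1-month effect by 2.22 on the log2 scale (SE 0.588, limma adjusted p = 0.03585). No other knockout comparison of Plin4 passed (limma adjusted p = 0.6569 at P10 and 0.2582 at 1 month). The authors' deposited table had Plin4 higher after acute deletion, with a log2 fold change of 2.61 and an adjusted p of 0.01486.

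In acHKO_acute a pair of genes from the adipocyte marker list, Cfd and Adrb3, were also higher, these being the 2 of 6 markers that could be tested. Cfd, which encodes complement factor D, had 4.95, 8.85 and 3.39 TPM in acHKO_acute against at most 0.0457 TPM in GFP_acute, and it was highest in the library where Plin4 and Plin5 were highest. The summed level of the 6 markers was 11.1 to 16.8 TPM in acHKO_acute against 1.22 to 2.51 TPM in GFP_acute. Adipoq and Lep, of the same list, were at 0 in all acHKO_acute libraries. Plin1, the coat protein of adipocyte droplets, reached at most 0.0203 TPM there. In GFP_acute Lep was likewise at 0 in all libraries, Adipoq reached at most 0.0176 TPM and Plin1 at most 0.0176 TPM. The part of adipocytes in the Plin4 difference was not tested.

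Fitm1 and Fitm2 encode membrane proteins of the endoplasmic reticulum that bind triglyceride and help droplets form; FITM1 is best known from muscle and FITM2 from most tissues. Fitm1 (ENSMUSG00000022215.6, chr14:55575617-55576954, plus strand) had 11.7, 10.955 and 10.2 TPM in acHKO_acute against 4.96, 3.92 and 5.49 TPM in GFP_acute. At P10 it had 2.61 and 1.96 TPM in HKO_P10 against 3.96 and 4.29 TPM in control_P10. At 1 month it had 0.658 and 1.24 TPM in HKO_1m against 1.67 and 1.77 TPM in control_1m. The knockout libraries were below their controls in the albumin-Cre model and above them in the acute model, without overlap. The relative log2 change was 1.41 after acute deletion (SE 0.195, limma adjusted p = 0.0006088), -0.90 at P10 (SE 0.191, limma adjusted p = 0.0482) and -0.50 at 1 month (SE 0.191, limma adjusted p = 0.1732). The P10 call was lost when any of the 4 P10 libraries was left out (limma adjusted p from 0.06651 to 0.3071). In the authors' deposited table Fitm1 at P10 had a log2 fold change of -1.17 and an adjusted p of 5.793e-06. There it had -0.98 and 0.06914 at 1 month, and 1.47 and 6.16e-11 after acute deletion. The acute effect exceeded the 1-month effect by 1.55 on the log2 scale (SE 0.257, limma adjusted p = 0.002344). The 4 skeletal muscle markers summed to 1.23 to 1.31 TPM in acHKO_acute against 0.738 to 1.67 TPM in GFP_acute.

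Fitm2 (ENSMUSG00000048486.6, chr2:163466379-163472629, minus strand) had 8.37, 9.81 and 6.69 TPM in acHKO_acute against 11.6, 13.8 and 13.2 TPM in GFP_acute. It had 12.1 and 17.2 TPM in HKO_1m against 7.82 and 11.6 TPM in control_1m, and 9.14 and 7.84 TPM in HKO_P10 against 9.66 and 9.68 TPM in control_P10. The groups did not overlap in any comparison, and the 1-month difference ran the opposite way to the others. Its fall after acute deletion was -0.59 on the log2 scale (SE 0.199, limma adjusted p = 0.02591) but -0.23 relative to the median gene, and it was lost with median-ratio rescaling (0.1474) and without GFP_acute replicate 2 (0.1225), acHKO_acute replicate 1 (0.06567) or acHKO_acute replicate 3 (0.1569). Fitm2 did not pass at 1 month (limma adjusted p = 0.2496) or at P10 (0.6559). The authors' deposited table instead called it lower at P10, with a log2 fold change of -0.50 and an adjusted p of 0.0008831, and did not call it after acute deletion, with -0.35 and 0.1878.

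Pnpla2 (ENSMUSG00000025509.15, chr7:141455198-141460743, plus strand) encodes adipose triglyceride lipase, which takes the first fatty acid off stored triglyceride, and G0s2 (ENSMUSG00000009633.3, chr1:193272161-193273217, minus strand) encodes its inhibitor. Pnpla2 had 26.2 and 18.7 TPM in HKO_P10 against 15.6 and 14.7 TPM in control_P10, and 31.8 and 41.4 TPM in HKO_1m against 31.6 and 66.0 TPM in control_1m. It had 22.8, 33.5 and 22.9 TPM in acHKO_acute against 26.7, 27.1 and 31.1 TPM in GFP_acute. Only at P10 did its groups not overlap, and its adjusted p was 0.3064, 0.6857 and 0.6617 by limma. G0s2 had 63.8 and 81.3 TPM in HKO_P10 against 42.7 and 50.01 TPM in control_P10, and 83.0 and 85.7 TPM in HKO_1m against 65.8 and 28.4 TPM in control_1m. It had 60.8, 39.0 and 71.3 TPM in acHKO_acute against 26.9, 22.8 and 68.2 TPM in GFP_acute. The knockout means of G0s2 were the higher ones each time, by 1.45 to 1.79 times, with overlap after acute deletion. None passed (limma adjusted p = 0.243, 0.1503 and 0.1072), although G0s2 passed at 1 month without control_1m replicate 1 (0.01201) and after acute deletion without GFP_acute replicate 3 (0.01722) or acHKO_acute replicate 2 (0.003059). The authors' deposited table had G0s2 higher after acute deletion, with a log2 fold change of 0.92 and an adjusted p of 0.02016.

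Transcript usage was tested as a change in the share of a gene's transcripts, called at an adjusted p under 0.05 with a change of at least 10 percentage points. It was called for Pnpla2 after acute deletion, the only one of the 2 members tested there, Plin5 and Pnpla2, beside 35.5% of all 3415 genes tested. Of the 4 members tested at P10 and at 1 month none was called, beside 0.586% and 0.234% of 4265 genes, and those with an unadjusted p under 0.05 were Cidec at P10 and Cd36 at 1 month. The limma diffSplice adjusted p of Pnpla2 was 0.01747. The share of its protein-coding transcript of 985 bases was 17.5% to 20.0% in acHKO_acute against 28.4% to 32.4% in GFP_acute. The usage call of Pnpla2 was lost without GFP_acute replicate 2 or acHKO_acute replicate 3. The leading transcript in both groups was one of 2048 bases, annotated as subject to nonsense-mediated decay, at 53.7% to 55.8% in acHKO_acute and 50.6% to 55.4% in GFP_acute.

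The differences between effects were tested directly. None of the 10 genes passed for the 1-month effect minus the P10 effect, where limma called 1.01% of all genes higher and 1.8% lower and 3 of the 10, beside 16.4% of all genes, had an unadjusted p under 0.05. For the acute effect minus the 1-month effect, Plin4 and Fitm1 passed in the higher direction and Cd36 and Fitm2 in the lower one, beside 1.01% and 5.82% of 11219 genes. The Cd36 difference was -2.23 on the log2 scale (SE 0.497, limma adjusted p = 0.01514) and was lost without control_1m replicate 1 (0.08551) or HKO_1m replicate 2 (0.09402). The Fitm2 difference was -1.14 (SE 0.302, limma adjusted p = 0.03585). Fitm1 passed with any library left out and under the alternatives that could test it, which leaves out the filter at 5 TPM. The Plin4 and Fitm2 calls were less settled: Plin4 was lost when any 1 of 7 libraries was left out, and Fitm2 was lost with any 1 of 8 left out. The models also differ in age, in the promoter that drives Cre, in the viral vector, in the genotype of their controls and in sequencing layout. These cannot be told apart.

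In the controls alone, 4 of the 10 genes were higher and 2 lower in control_1m than in control_P10, beside 6.08% higher and 38.2% lower of all genes, with a median log2 change of -0.428 over all genes. Plin5 rose most, to 31.8 and 47.4 TPM in control_1m, against 8.97 and 8.76 TPM in control_P10 (relative log2 change 2.44, limma adjusted p = 0.0001546). Plin4 (1.91, limma adjusted p = 0.0003469) and Pnpla2 (1.96, limma adjusted p = 0.003287) rose as well, beside Cidec. Fitm1 fell together with Cd36, by -0.91 on the log2 scale and -0.48 relative to the median gene (limma adjusted p = 0.002796). The 10 macrophage markers were all lower in control_1m as well, and they were summed at 14.9 and 18.0 TPM there against 385 and 405 TPM in control_P10. Their part in the fall of Cd36 was not tested.

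Outside the 10 genes, other carriers and activating enzymes of fatty acids did not share one direction. The counts of this and the next lists are to be read against the shares of all genes called: 10.8% higher and 1.87% lower at P10, 4.87% and 1.99% at 1 month, and 5.93% and 34.8% after acute deletion. Of 15 tested at P10, 1 rose and 1 fell: Acsl4, an acyl-CoA synthetase, was at 43.3 TPM in HKO_P10 against 12.1 TPM in control_P10, and Slc27a5, a liver fatty acid transporter and bile acid ligase, was at 56.4 TPM in HKO_P10 against 124 TPM in control_P10 (relative log2 changes 1.505 and -1.41, limma adjusted p = 0.001754 and 0.03208). Of 15 at 1 month, 3 rose and none fell, led by Lpl, lipoprotein lipase, at 43.1 TPM in HKO_1m against 5.09 TPM in control_1m (2.84, limma adjusted p = 0.0003561). The others were Acsl3 (1.05) and Fabp5 (1.01). Macrophages make Lpl too, and its rise went with the marker sums given for Cd36; their part was not tested. Of 14 after acute deletion, none rose and 10 fell, with Acsl4, Slc27a5 and Acsl5 first by p (relative log2 changes -1.17, -1.08 and -0.91, limma adjusted p = 3.862e-05, 6.655e-05 and 0.000278). The median relative log2 change of this list was -0.33, 0.31 and -0.62 in the 3 comparisons.

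Among 10 other droplet proteins tested, 4 rose at P10 and 1 at 1 month, and none fell. Hilpda, an inhibitor of lipolysis induced by fatty acids and by low oxygen, was at 17.2 TPM in HKO_P10 against 2.66 TPM in control_P10 (relative log2 change 2.06, limma adjusted p = 2.67e-05) and at 2.55 TPM in HKO_1m against 1.07 TPM in control_1m (0.78, limma adjusted p = 0.03049). Plin3, a perilipin found on small droplets, and Hsd17b13, a hepatocyte droplet protein, rose at P10 by 0.62 and 0.60 (limma adjusted p = 0.03271 and 0.04012). After acute deletion 1 of 9 rose and 4 fell, led by Rab18, at 26.1 TPM in acHKO_acute against 47.5 TPM in GFP_acute (-0.46, limma adjusted p = 0.004738). Hsd17b13 was the one that rose, to 385 TPM in acHKO_acute against 215 TPM in GFP_acute (1.198, limma adjusted p = 0.006065), and Ldah fell (-0.21, limma adjusted p = 0.02898). The median relative log2 change was 0.02, 0.14 and 0.04.

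Enzymes of triglyceride synthesis gave 1 higher of 11 at P10, 1 lower of 11 at 1 month, and 3 higher and 3 lower of 11 after acute deletion, with median relative log2 changes of -0.02, -0.15 and 0.33. Gpat3, which adds the first fatty acid to glycerol phosphate, rose at P10 (0.60, limma adjusted p = 0.03563) and after acute deletion (1.497, limma adjusted p = 0.0006161), as did Agpat2 after acute deletion (1.34, limma adjusted p = 0.002639), while Gpat4 fell there (-0.60, limma adjusted p = 0.004115). Lpin1, a phosphatidic acid phosphatase, was at 6.69 TPM in HKO_1m against 95.1 TPM in control_1m (-3.60, limma adjusted p = 5.088e-05). Lipases and their helpers gave 1 higher and 1 lower of 9 at P10, 1 higher of 9 at 1 month, and 1 higher and 4 lower of 8 after acute deletion, with medians of -0.22, 0.11 and -0.11. Ces1d, a microsomal triglyceride hydrolase, fell at P10 (-1.39, limma adjusted p = 0.03454) and after acute deletion (-1.48, limma adjusted p = 1.805e-05), while its relative Ces1g rose at P10 (0.88, limma adjusted p = 0.03352) and at 1 month (1.32, limma adjusted p = 0.02299). Aadac and Mgll, which hydrolyse glycerides, fell after acute deletion (-0.57 and -0.66, limma adjusted p = 0.002408 and 0.002467). Near-identical carboxylesterase genes share sequence, so their assignment is uncertain.

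Of 15 known PPAR targets outside the 10 genes, 5 rose and none fell at P10, 2 of 15 rose and none fell at 1 month, and 4 of 14 rose and 3 fell after acute deletion, with median relative log2 changes of 0.40, 0.25 and 0.57. Acot2, a mitochondrial acyl-CoA thioesterase, rose in all 3, at 11.3 TPM in HKO_P10 against 2.49 TPM in control_P10, at 20.97 TPM in HKO_1m against 2.26 TPM in control_1m, and at 2.19 TPM in acHKO_acute against 0.701 TPM in GFP_acute (limma adjusted p = 0.008205, 0.0005738 and 0.002052). Fgf21, a fasting hormone, rose at P10 and after acute deletion (relative log2 changes 1.76 and 1.503, limma adjusted p = 0.001496 and 0.001786). Angptl4, an inhibitor of lipoprotein lipase, rose at P10 (1.25, limma adjusted p = 0.004641), Pdk4 at 1 month (3.04, limma adjusted p = 0.0008837) and the fatty acid hydroxylase Cyp4a14 after acute deletion (2.75, limma adjusted p = 1.433e-05). Of 14 transcriptional regulators, 1 rose at P10 (Cebpb, 0.95, limma adjusted p = 0.02482), 1 fell at 1 month (Epas1, -0.98, limma adjusted p = 0.03756) and 4 fell after acute deletion, where 34.8% of all genes fell, with Ppara, the fatty acid receptor, at 27.7 TPM in acHKO_acute against 55.0 TPM in GFP_acute (-0.60, limma adjusted p = 0.000958). Cebpa and Hif1a fell by -0.70 and -0.30 (limma adjusted p = 0.003147 and 0.01692). Their medians were -0.31, -0.26 and -0.05.

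**Figure D5:**
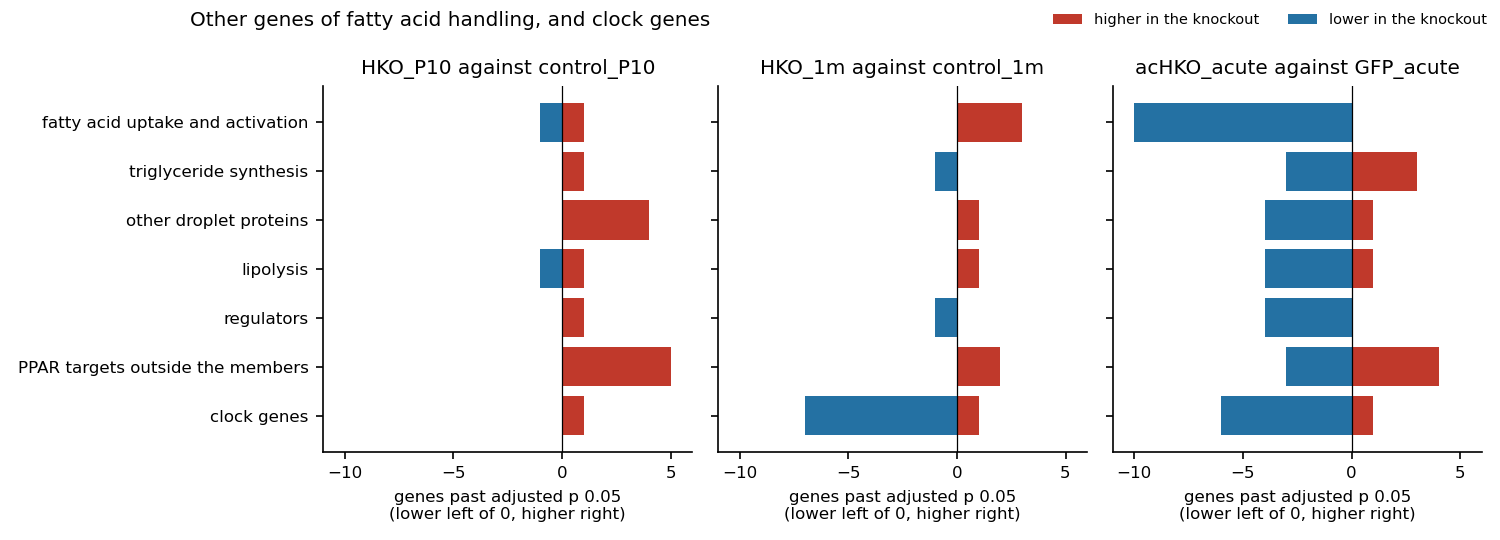
Number of genes of each list past adjusted p 0.05 (x axis), higher in the knockout to the right of 0 and lower to the left, in the 3 comparisons. PPAR targets and other droplet proteins are only higher at P10 (5 and 4 genes), and 10 fatty acid uptake and activation genes are lower after acute deletion.

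Clock genes are given because many lipid genes cycle through the day. Of 14 tested, 1 rose at P10, 1 rose and 7 fell at 1 month, and 1 rose and 6 fell after acute deletion, with median relative log2 changes of -0.04, -0.93 and -0.14. Of all genes 1.99% fell at 1 month and 34.8% after acute deletion. At 1 month Nr1d1 was at 7.13 TPM in HKO_1m against 21.4 TPM in control_1m, Ciart at 1.98 TPM in HKO_1m against 18.9 TPM in control_1m and Tef at 12.2 TPM in HKO_1m against 59.0 TPM in control_1m (limma adjusted p = 0.002375, 0.003367 and 0.005849). After acute deletion Ciart was at 37.6 TPM in acHKO_acute against 14.6 TPM in GFP_acute (limma adjusted p = 0.0003091), while Per3 and Cry2 fell (-0.51 and -0.35, limma adjusted p = 0.008024 and 0.01394). Per1 rose at P10 (0.56, limma adjusted p = 0.03264). The part of the clock genes in the 1-month and acute results was not tested.

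In a fit without HKO_P10 replicate 2, chosen after seeing the data, fewer list genes passed at P10. Acsl4 (limma adjusted p = 0.007731), Hilpda (3.218e-05), Acot2 (0.004531), Fgf21 (0.003632) and Angptl4 (0.01093) were still higher, and the 5 PPAR targets that rose were the same genes, with Pdk4 (0.002823) and Acot1 (0.03879). Slc27a5 (limma adjusted p = 0.2576), Plin3 (0.1237), Hsd17b13 (0.2917), Gpat3 (0.2764), Ces1d (0.2735), Ces1g (0.07418), Cebpb (0.06901) and Per1 (0.2639) did not pass, so that 1 of 10 other droplet proteins rose. Of the 10 macrophage markers 2 were higher, Cd68 (limma adjusted p = 0.004337) and Cd5l (0.031).

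The genes whose pattern over the 14 libraries was most like that of a member were found by the root-mean-square difference of log2(TPM + 1), each gene centred on its own mean, among genes that averaged 5 TPM or more. This was done for the 6 members whose highest and lowest group means differed by at least 2 on that scale. Cidec was most like Apoa4, an apolipoprotein, at a difference of 0.387, then Trib3 (0.652) and Ifi27l2b (0.724). Apoa4 averaged 387 TPM in HKO_P10 against 34.5 TPM in control_P10, 361 TPM in HKO_1m against 184 TPM in control_1m and 196 TPM in acHKO_acute against 42.2 TPM in GFP_acute, so that its order of groups was that of Cidec. Cd36 was most like Acot2 (0.535), Spon2 (0.580) and H2-Q1 (0.591). Plin2 was nearest to Crip2 (0.345), Plin5 to Slc38a2 (0.320), Plin4 to Glt1d1 (0.502) and Fitm1 to Dio1 (0.417). Next came Htatip2 (0.353) and Tjp3 (0.354) for Plin2, Aass (0.380) and Retreg1 (0.410) for Plin5, Me3 (0.508) and Asic5 (0.518) for Plin4, and Zfand4 (0.521) and Sult1b1 (0.535) for Fitm1.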

How the data were processed

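Polyadenylated RNA of purified hepatocytes was made into stranded libraries, per the labels' protocols. The authors deposited transcript TPM, quantified with kallisto 0.46.0 per the submitters' processing notes, and their own comparison tables, made with DESeq2 per the same notes. In those deposited tables, per the file headers, the values are a mean normalized count (a signal), log2 fold changes and their errors, a test score and p-values; they are quoted only where the authors' deposited table is named. Transcript TPM were summed per gene, with locations and transcript types from GENCODE M21. Genes averaging 1 TPM or more across the libraries of a fit entered limma 3.58.1 (R 4.3.3, trend and empirical Bayes) on log2(TPM + 1), which understates the change of low genes. The albumin-Cre libraries (8, 4 residual degrees of freedom) and the acute libraries (6, also 4) were fitted separately, and the difference between their effects over all 14 (8). P-values were adjusted over all genes by Benjamini-Hochberg. For transcript usage, limma's diffSplice was run on transcripts averaging 1 TPM or more and 5% of their gene. The fits were tested on simulated data. No count model was used, since the values are not counts, and neither depth nor counting error is known.

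The 10 genes and all lists were chosen with earlier results of these data known. Of each list, up to 3 genes with the smallest p among those that passed are named. Promoter windows came from RefSeq (GRCm38.p6), where all 10 genes matched. Alternatives were another pseudocount, other filters, other scalings, a replicate block, smaller fits and leaving out each library. Within groups, libraries correlated at 0.976 to 0.994. No batch is given in the labels used here.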

Additional observations from a re-analysis of the deposited data

Results flagged for a closer look

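In 4 of the 10 genes the acute effect and the 1-month effect of losing SRSF1 differed by the test of the difference itself. Over all 11219 genes tested, 1.01% passed in the higher direction and 5.82% in the lower one. Plin4 and Fitm1 had the larger effect after acute deletion, by 2.222 (limma adjusted p = 0.03585) and 1.55 (limma adjusted p = 0.002344) on the log2 scale. Cd36 and Fitm2 had the lower one, by -2.233 (limma adjusted p = 0.01514) and -1.142 (limma adjusted p = 0.03585). For Fitm1 the libraries of acHKO_acute were all above those of GFP_acute, and those of HKO_1m were all below those of control_1m. For Cd36 both knockouts were above their controls, and only the sizes differed. The smallest groups, HKO_1m and control_1m, have 2 libraries each. The calls of Plin4, Cd36 and Fitm2 were lost when certain single libraries were left out, as given above. With no filter on mean TPM they were lost as well.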

How the results depend on the processing

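Of the single-gene values, Cideb and Fitm2 changed sign in control_1m against control_P10 with median-ratio rescaling. Their log2 changes went from -0.012 and -0.019, neither of which passed, to 0.6262 and 0.5658. Relative to the median gene both were positive before rescaling, at 0.42 and 0.41. Median-ratio rescaling sets the median gene of each library near that of the others. Counts of the 10 genes called at P10, 3 as reported, were 1 with pseudocount 0.1, 1 with no filter, 6 with those 4 libraries fitted alone and 1 to 4 with a library left out. At 1 month, 2 as reported, they were 1 with no filter, 4 with median-ratio rescaling, 4 with coding genes only and 1 to 4 with a library left out. After acute deletion, 5 as reported, they were 2 with no filter. For the 1-month minus P10 effect, 0 as reported, they were 1 with a mean of at least 5 TPM, 2 with coding genes only and 0 to 2 with a library left out. For the acute minus 1-month effect, 4 as reported, they were 1 with no filter, 2 with at least 5 TPM and 1 to 4 with a library left out. Usage calls were 0 to 1 with a library left out in each comparison, and that of Pnpla2 was lost with transcripts of at least 5 TPM (0 calls). The filter at 5 TPM removes low members such as Fitm1 from the tests; the cause of the other shifts was not tested.

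Over all genes, calls at P10 (1488) were 932 with pseudocount 0.1, 2236 with no filter, 805 with at least 5 TPM, 5007 in the smaller fit and 562 to 3231 with a library left out. At 1 month (805) they were 391 with no filter, 1695 with median-ratio rescaling and 613 to 1344 with a library left out. After acute deletion (4058) they were 2658 with at least 5 TPM. For the 1-month minus P10 effect (329) they were 529 with median-ratio rescaling, 692 with coding genes only and 203 to 1688 with a library left out. For the acute minus 1-month effect (766) they were 464 with at least 5 TPM, 1485 with median-ratio rescaling and 365 to 2127 with a library left out. For the controls by age (5194) they were 2634 with at least 5 TPM and 3055 to 6822 with a library left out. Median-ratio rescaling also moved the split of calls: 50.7% higher at P10 against 85.2% as deposited, 46.7% against 71.1% at 1 month, 33.9% against 14.6% after acute deletion, 50.7% against 35.9% for 1 month minus P10, 51.7% against 14.8% for acute minus 1 month, and 57.6% against 13.7% for the controls by age. With coding genes only, 24.3% of the 1-month minus P10 calls were higher.

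Whether replicate numbers pair the libraries is not settled. Same-numbered deviations correlated at 0.0072 at P10, 0.283 at 1 month, and -0.0392, 0.27 and 0.184 in the acute groups. Differently numbered ones correlated at -0.265 to 0.0919 in the acute groups. At P10 and 1 month they only mirror the same-numbered values, because each group has 2 libraries. With a replicate block, 4 of the 10 genes were called at P10, 6 at 1 month (Plin2 at a limma adjusted p of 0.002595, Plin5 at 0.01665, G0s2 at 0.03983 and Fitm2 at 0.04898 beside Cd36 and Cidec), 4 after acute deletion, 3 for 1 month minus P10 and 4 for acute minus 1 month; over all genes the counts were 2936, 1503, 3208, 981 and 1134, and usage calls among the 10 were 1 at P10 and 0 after acute deletion. Where a group is left with 1 library, that library is assumed to vary like the others.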
